A study of Homo sapiens with 7 samples.

Results

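The windows described here surround 5 genes that encode transcriptional regulators of blood cells: LMO2, BCL6, NFE2, RUNX1 and IRF8. A peak of the vitamin D receptor (VDR) belonged to a window if it overlapped the gene body or the 100 kb on either side of it, in hg19. The windows held 93 of the 89218 peaks in hand, and merging peaks that shared at least 1 bp gave 50 of the 77132 sites of the series. The genes were chosen by the peaks that earlier results on these same lists had shown near them. The counts, folds and ranks below are therefore a description and no test was run on them.

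Cells of THP-1, an established line from a human acute monocytic leukaemia, were treated for 8 h with 100 nM 1,25-dihydroxyvitamin D3 (1,25D) or with its solvent, 0.1% ethanol (EtOH). VDR-bound DNA was recovered by ChIPmentation, an immunoprecipitation in which a transposase adds sequencing adapters, in 3 libraries per treatment. An input library was not analysed here. All groups share the 1 cell line, and the labels do not say whether replicates came from separate cultures, so the spread between libraries may be technical.

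VDR is a nuclear receptor that binds DNA as a partner of the retinoid X receptor, typically at pairs of hexamers in direct repeat, and that is activated by 1,25D. The 5 genes act at different steps of blood formation. LMO2 is a LIM-domain adaptor that bridges DNA-binding proteins in blood stem and progenitor cells. RUNX1 is the DNA-binding subunit of core-binding factor and is needed for definitive haematopoiesis. NFE2 is the large subunit of a bZIP dimer of the megakaryocyte and erythroid lineages. IRF8 directs monocyte and dendritic cell development. BCL6 is a zinc-finger repressor best known from germinal centre B cells.

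Each library has its own list of peaks, each with the authors' fold enrichment over background and a p-value, and a site without a peak in a list is one that fell short of the caller's threshold in that library. The lists give no read counts and the depth of each library is unknown. The lists held 3647 to 33820 peaks, with the most in EtOH replicate 2, and 3 of them stop in mid-line. All 6 lists cover LMO2 and NFE2. The list of 1,25D replicate 2 ends on chromosome 16 at 50293713, so BCL6, RUNX1 and IRF8 are covered by 5 lists, of which 2 are from 1,25D. The lists of both replicates 1 hold no p-value above 0.00433 and the others reach 0.00978 to 0.00997.

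Of the 50 sites, 18 were listed in 2 or more libraries, and each of these 18 had a peak in at least 1 1,25D list. An EtOH list held a peak at 12 of the 18, and the other 6 were listed after 1,25D alone. The 6-list windows, those of LMO2 and NFE2, held 6 recurrent sites, all with a 1,25D peak and 3 also with an EtOH peak. In that part of the lists 2959 of 28993 sites recurred. Of these, 89.7% had a 1,25D peak, 61.9% an EtOH peak and 38.1% 1,25D peaks alone. The 5-list windows, those of the other 3 genes, held 12, all with a 1,25D peak and 9 also with an EtOH peak. In that part of the lists 1886 of 23257 sites recurred, and the shares over these were 93.8%, 66.8% and 33.2%. A 1,25D peak at nearly every recurrent site is thus a feature of the lists as a whole.

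In total the windows held 57 of the 27529 peaks in 1,25D lists and 36 of the 61689 in EtOH lists, although 1,25D has fewer lists over 3 of the genes. At a fold of 5 or more, the 6-list windows held 11 of their 19 1,25D peaks and 3 of their 10 EtOH peaks, where the shares over the same part of the lists were 18.6% and 3.43%. In the 5-list windows the numbers were 15 of 38 and 5 of 26, where the shares were 21.6% and 4.09%. The genes were picked for their peaks, so nothing is read from these counts.

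**Figure D1:**
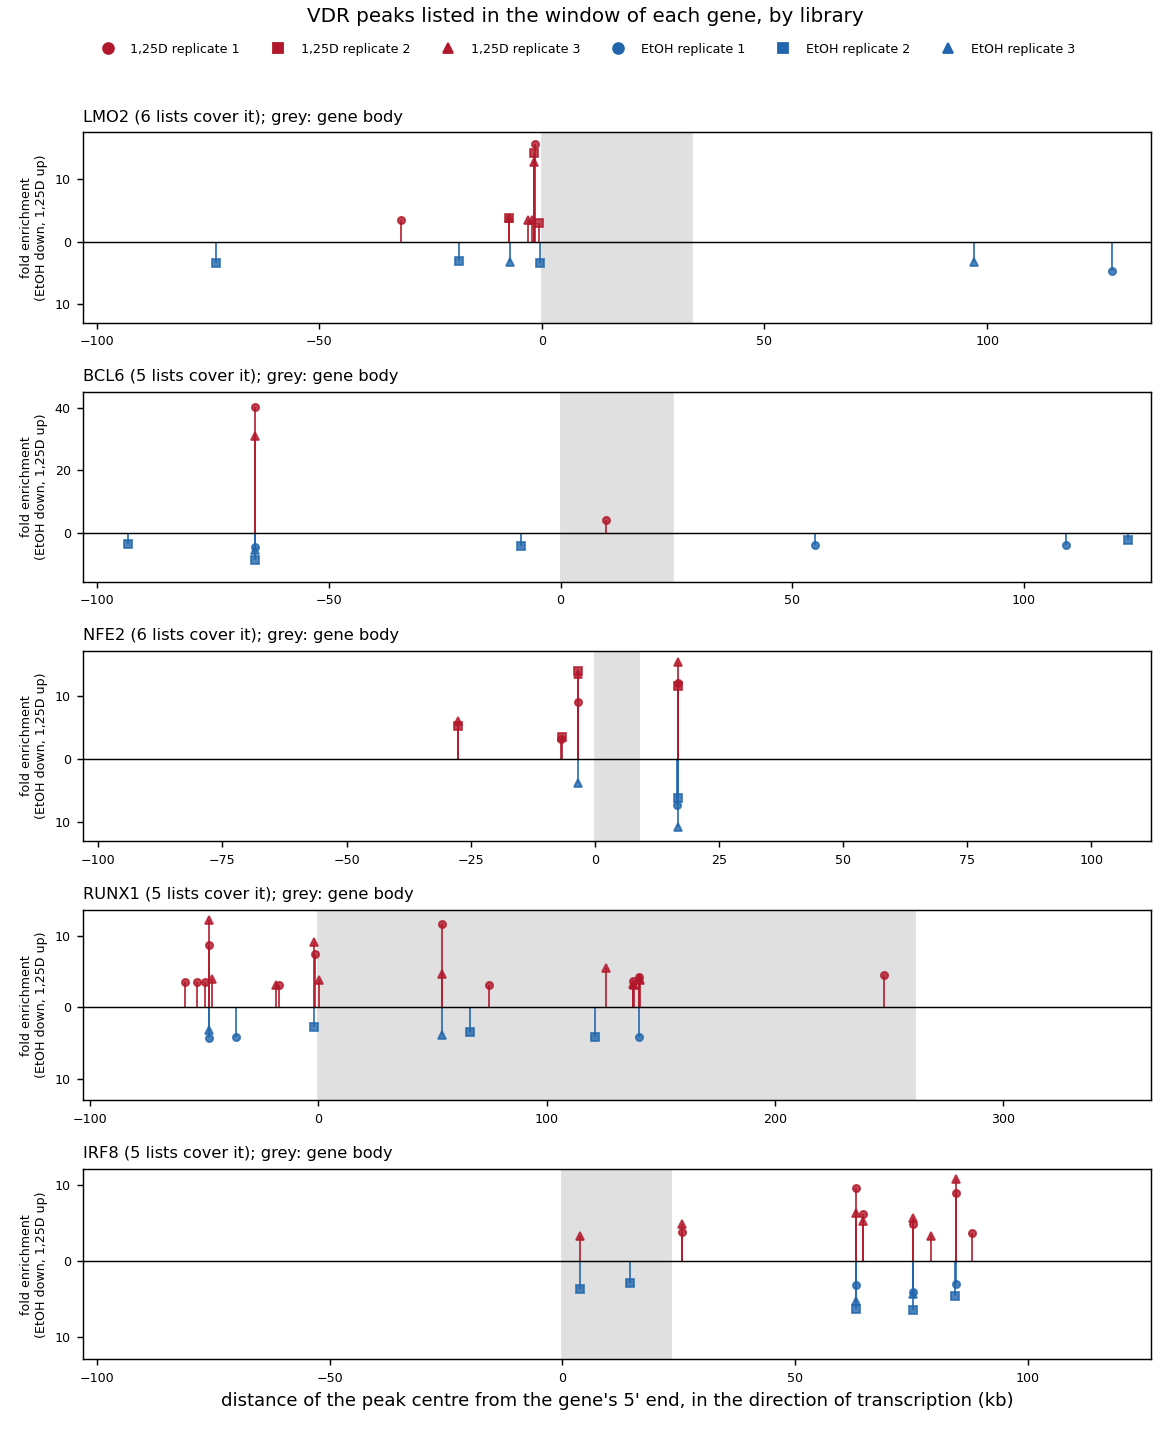
Every peak listed in the 5 windows: the x axis is the distance of the peak centre from the gene's 5′ end in kb, the y axis the authors' fold enrichment, upward for 1,25D and downward for EtOH, with a symbol for each replicate and the gene body in grey. The highest peaks lie upstream of LMO2 and BCL6, on both sides of NFE2, in and upstream of RUNX1 and downstream of IRF8.

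The number of sites and the way they recurred differed between the genes. RUNX1, the longest gene at 261 kb, had 19 sites of which 5 recurred, and LMO2 had 11 with 2. IRF8 had 9 with 6, BCL6 had 7 with 1, and NFE2 had 4, all of which recurred. LMO2 and NFE2 are covered by 6 lists and the others by 5, so nothing is read from these differences. In the 6-list windows, LMO2 and NFE2 together, 3 of 15 sites had a peak in every 1,25D list, 1 of them in no EtOH list and 1 in all 6 lists. Over all sites of the same part of the lists the shares were 4.2% in every 1,25D list, 1.7% in every 1,25D and no EtOH list, and 1.03% in all 6. In the 5-list windows, 11 of 35 sites were in both 1,25D lists, 3 of them in no EtOH list and 3 in all 5, against 6.08%, 2.7% and 1.34% of all sites. EtOH-only sites, those with a peak after EtOH in all 3 libraries and none after 1,25D, numbered 0 in the windows and formed 0.0379% and 0.0086% of all sites of the 2 parts. Since the genes were picked for such peaks, these shares say nothing further about them.

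**Figure D2:**
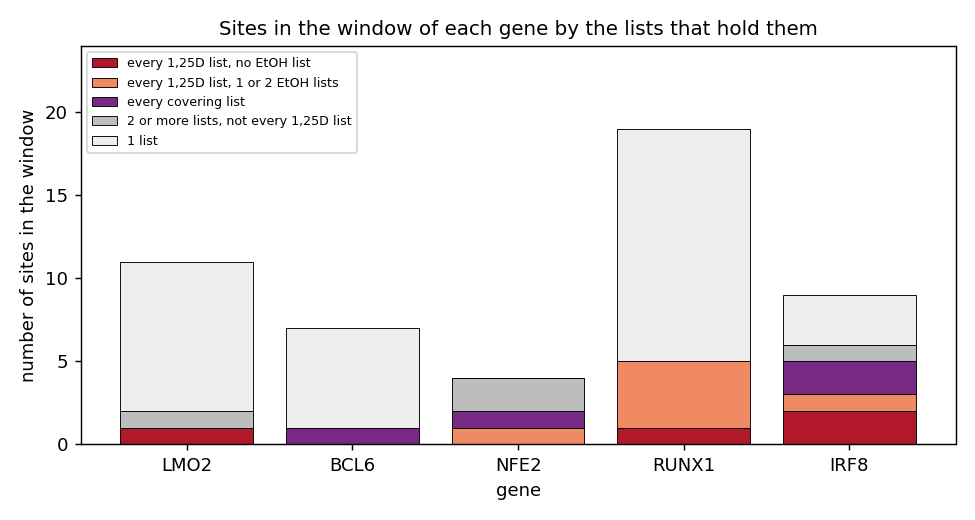
The number of sites in each gene's window, stacked by the lists that hold them: every 1,25D list and no EtOH list, every 1,25D list with 1 or 2 EtOH lists, every covering list, 2 or more lists but not every 1,25D list, and 1 list. RUNX1 has 19 sites of which 14 are in 1 list, and all 4 sites of NFE2 are in 2 or more.

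LMO2 (NCBI gene 4005; chromosome 11 at 33880122 to 33913836, hg19, transcribed towards lower coordinates) had the strongest of the 4 sites that were in every covering 1,25D list and in no EtOH list. It lay just upstream of the 5′ end, at 33915105 to 33915901, 1.27 kb from the gene. Its fold enrichment was 15.6, 14.1 and 12.8 in 1,25D replicates 1 to 3, a mean of 14.2 ± 1.42 (SD, n = 3), and none of the 3 EtOH lists held a peak there. The peak's p-value was between 3.70e-25 and 3.09e-32 in the 1,25D lists. Within its list the peak had a percentile of fold of 98.2, 97.2 and 96.6 in replicates 1 to 3 among the peaks compared. The 3 peaks were 517, 796 and 572 bp long and their centres lay within 52.5 bp of each other.

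The other peaks of the LMO2 window had lower folds. The highest of them, at 33785706 to 33785858, 94.3 kb past the gene, was in EtOH replicate 1 alone with a fold of 4.76, at percentile 91.9 of that list. A second recurrent site at 33921001 to 33921566, 7.17 kb upstream of the gene, had folds of 3.79 and 3.81 in 1,25D replicates 2 and 3. EtOH replicate 3 had 3.36 there, and the other lists had no peak. That EtOH peak overlapped the peak of 1,25D replicate 2 but not that of 1,25D replicate 3. Between the main site and the gene, EtOH replicate 2 listed a peak at 33914267 to 33914415 with a fold of 3.46 and 1,25D replicate 2 a peak at 33914416 to 33914557 with a fold of 2.94. These peaks abut without sharing a base and were counted as separate sites. No peak of any list lay inside the LMO2 gene body.

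BCL6 (NCBI gene 604; chromosome 3 at 187439165 to 187463513, transcribed towards lower coordinates) had 1 recurrent site, and its folds after 1,25D were the highest of all 93 peaks. The site lay 65.6 kb upstream of the gene, at 187529065 to 187529873. The fold was 40.4 and 30.9 in 1,25D replicates 1 and 3, a mean of 35.6 ± 6.70 (SD, n = 2). In EtOH replicates 1 to 3 it was 4.72, 8.81 and 5.54, a mean of 6.36 ± 2.16 (SD, n = 3). The site was thus present with the solvent alone, and both 1,25D folds lay far above all EtOH folds. The p-values were 1.74e-114 and 2.76e-82 after 1,25D and 5.09e-07, 4.02e-15 and 5.29e-08 after EtOH. Its peaks were also longer after the hormone, at 801 and 731 bp against 455, 463 and 339 bp, and all 5 centres lay within 54 bp.

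The other 6 sites of the BCL6 window were each in 1 list, 5 of them in an EtOH list, with folds of 2.30 to 4.40. The 1 peak inside the gene body, at 187453721 to 187453868, had a fold of 3.87 in 1,25D replicate 1. No list held a peak at the 5′ end of BCL6, where the nearest on the upstream side began 8.43 kb away, in EtOH replicate 2.

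NFE2 (NCBI gene 4778; chromosome 12 at 54685891 to 54694821, transcribed towards lower coordinates) lay between recurrent sites that behaved differently without hormone. Upstream, 3.04 kb from the gene, the site at 54697860 to 54698642 had folds of 9.02, 13.9 and 13.5 in 1,25D replicates 1 to 3, a mean of 12.1 ± 2.72 (SD, n = 3). Of the EtOH lists only replicate 3 held it, with a fold of 3.82 and a peak of 198 bp against 492 to 782 bp after 1,25D.

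Downstream of NFE2, 7.46 kb from the gene, the site at 54677735 to 54678432 was in all 6 lists. Its folds were 12.0, 11.5 and 15.3 in 1,25D replicates 1 to 3, a mean of 12.9 ± 2.06 (SD, n = 3). The EtOH folds were 7.34, 6.23 and 10.8, a mean of 8.11 ± 2.36 (SD, n = 3). Every 1,25D fold was above every EtOH fold, but by little: 11.5 in 1,25D replicate 2 followed 10.8 in EtOH replicate 3. The next protein-coding gene on that side, in RefSeq's GRCh38 annotation, is HNRNPA1, which encodes an RNA-binding protein of the heterogeneous nuclear ribonucleoproteins. Whether the site lies between the genes or inside HNRNPA1 was not determined here, since no hg19 gene models were used. It was not assigned to either gene.

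Both other NFE2 sites were upstream and in 2 of the 3 1,25D lists, with no EtOH peak. The site at 54722166 to 54722620, 27.3 kb from the gene, had folds of 5.29 and 5.96 in replicates 2 and 3. In RefSeq's GRCh38 annotation the next protein-coding gene upstream of NFE2 is COPZ1. Whether this site lies inside COPZ1 was not determined here, and it was not assigned to either gene. The site at 54701319 to 54701602, 6.50 kb from the gene, had 3.18 and 3.54 in replicates 1 and 2. No peak was listed inside NFE2 itself.

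RUNX1 (NCBI gene 861; chromosome 21 at 36160098 to 36421595, transcribed towards lower coordinates) had 3 stronger sites spread over 102 kb around its 5′ end. All 3 were in both covering 1,25D lists and in 1 or 2 of the 3 EtOH lists. The furthest upstream of the 3, at 36469163 to 36469900, 47.6 kb from the gene, ranked highest in the window. Its folds were 8.69 and 12.2 in 1,25D replicates 1 and 3, a mean of 10.4 ± 2.46 (SD, n = 2), and 4.29 and 3.13 in EtOH replicates 1 and 3. EtOH replicate 2, the longest list, did not hold it.

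Closest to the RUNX1 5′ end was the site at 36423095 to 36423816, 1.5 kb upstream. It had folds of 7.43 and 9.19 in 1,25D replicates 1 and 3, a mean of 8.31 ± 1.25 (SD, n = 2), and 2.77 in EtOH replicate 2 alone. Over the 5′ end itself, at 36421514 to 36421656, 1,25D replicate 3 listed a peak with a fold of 3.81. The third site lay inside the gene, 54.1 kb past the 5′ end, at 36367166 to 36367757. Here the 1,25D libraries differed most, with folds of 11.7 in replicate 1 and 4.67 in replicate 3, a mean of 8.17 ± 4.95 (SD, n = 2), and EtOH replicate 3 had 3.82. With that spread, the folds of the 3 sites after 1,25D cannot be put in order.

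Deeper inside RUNX1, 138 and 140 kb past the 5′ end, a pair of weaker recurrent sites lay 2.55 kb apart. The site at 36280954 to 36281310 had folds of 4.24 and 4.17 after 1,25D and 4.19 in EtOH replicate 1, so the treatments overlapped. The site at 36283432 to 36283922 had 3.71 and 3.29 after 1,25D and no EtOH peak. Replicate 3 listed separate peaks there, at 36283432 to 36283609 (fold 3.09) and at 36283725 to 36283922 (fold 3.29). Only the peak of 1,25D replicate 1 joined them into 1 site. Of the RUNX1 peaks in 1 list alone, the 1 with a fold of 5 or more, at 36295601 to 36295805, had a fold of 5.45 in 1,25D replicate 3. Whether these positions are exonic or intronic was not determined here, since no hg19 gene models were used.

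IRF8 (NCBI gene 3394; chromosome 16 at 85932774 to 85956211, transcribed towards higher coordinates) differed in that most of its recurrent sites lay downstream. Of its 6 recurrent sites, 5 were past the 3′ end, 4 of them grouped between 39.4 and 60.9 kb beyond it. In RefSeq's GRCh38 annotation the next protein-coding gene on that side is FOXF1, a forkhead factor gene. No peak was listed in the 100 kb upstream of IRF8.

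The IRF8 site with the highest rank was the most distant of the recurrent ones, at 86017119 to 86017508, 60.9 kb past the gene. Its folds were 8.90 and 10.7 in 1,25D replicates 1 and 3, a mean of 9.82 ± 1.31 (SD, n = 2), and 3.10 and 4.60 in EtOH replicates 1 and 2. All 1,25D folds were above the EtOH folds, and EtOH replicate 3 had no peak. A site at 85997233 to 85997582, 41.0 kb past the gene, had 6.18 and 5.22 after 1,25D and no EtOH peak. Close to the 3′ end, at 85958326 to 85958560, a site had 3.71 and 4.89 after 1,25D and again no EtOH peak.

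Another pair of IRF8 sites was in all 5 lists, with folds that overlapped between treatments. At 85995631 to 85996170, 39.4 kb past the gene, the folds were 9.55 and 6.32 after 1,25D (mean 7.93 ± 2.29, SD, n = 2) and 3.20, 6.43 and 5.33 in EtOH replicates 1 to 3 (mean 4.98 ± 1.64, SD, n = 3). This site lay 1.51 kb from the site at 85997233, which was absent from every EtOH list. At 86007767 to 86008474, 51.6 kb past the gene, the folds were 4.77 and 5.60 after 1,25D (mean 5.19 ± 0.587, SD, n = 2) and 4.17, 6.48 and 4.40 after EtOH (mean 5.02 ± 1.27, SD, n = 3). The highest fold at this last site came from EtOH replicate 2.

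**Figure D3:**
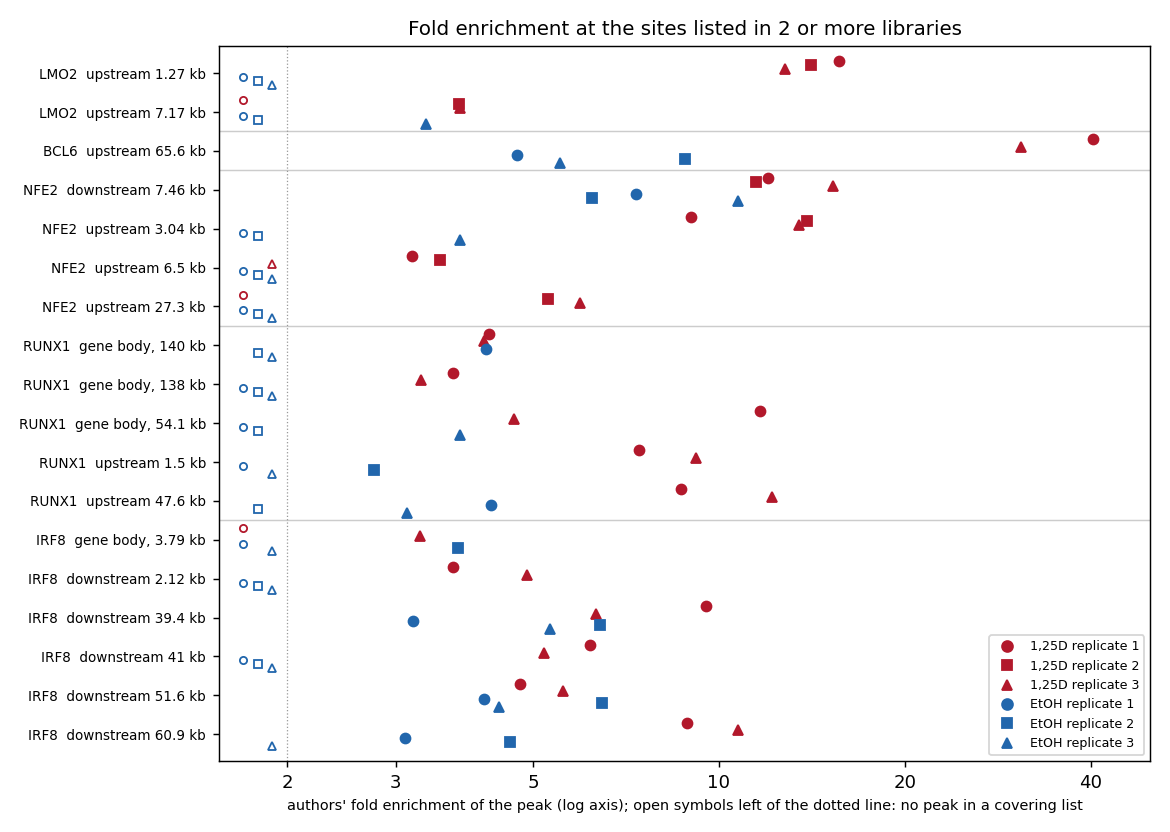
The authors' fold enrichment (log axis) at each of the 18 sites listed in 2 or more libraries, a symbol per library; open symbols mark covering lists with no peak, and distances are from the gene's nearest end or, for sites in the gene body, from the 5′ end. The BCL6 site has 40.4 and 30.9 after 1,25D against 4.72 to 8.81 after EtOH, and the IRF8 site at 51.6 kb has overlapping folds.

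Inside IRF8, EtOH replicate 2 and 1,25D replicate 3 listed a weak site at 85936435 to 85936692, with folds of 3.78 and 3.28. It lay 3.66 to 3.92 kb past the 5′ end of the gene in hg19. RefSeq's promoter table, in GRCh38, has a start site of IRF8 3.85 kb past the 5′ end of its own IRF8 gene model, and it is shown for that nearness. Positions were not converted between the builds, so the peak was not placed on these letters. The window runs from 250 bases before to 50 after the start (GRCh38.p14, chr16:85902765-85903064, plus strand), and capitals mark the hexamer AGGTCA, a classical half-site of VDR.
IRF8: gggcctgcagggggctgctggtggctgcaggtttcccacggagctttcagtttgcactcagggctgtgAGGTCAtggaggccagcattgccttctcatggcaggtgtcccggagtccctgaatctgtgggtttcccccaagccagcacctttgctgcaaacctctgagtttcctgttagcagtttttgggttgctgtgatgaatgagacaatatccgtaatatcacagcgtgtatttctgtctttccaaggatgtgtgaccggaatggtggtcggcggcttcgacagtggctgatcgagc

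The half-site hexamer AGGTCA and its variants GGTTCA and also GGGTCA and lastly AGTTCA were searched on both strands in these windows, which the table holds for 3 of the 5 genes (BCL6, RUNX1 and IRF8). AGGTCA was in 13.8% of all 34796 promoter windows, and any of the 4 hexamers in 38.6%. Both IRF8 windows, which overlap, held the same AGGTCA. Of the BCL6 windows, the one at the outer start held none and the one 8.97 kb inside the gene held AGTTCA on the opposite strand. The RUNX1 window, 161 kb inside the gene, held none. A direct repeat of 2 such hexamers 3 bp apart was in none of these windows and in 0.0747% of all.

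At the sites listed in both treatments, the hormone folds were mostly the higher ones, as they were across the lists. Every listed 1,25D fold exceeded every listed EtOH fold at 3 of 3 such sites in the 6-list windows, against 55.9% of all such sites. In the 5-list windows this was so at 5 of 9, against 67.4%. Lists with no peak at a site were left out, so at some sites the EtOH side is 1 list, as at LMO2. At 1 of the 12, the site inside IRF8, the single 1,25D fold was below the single EtOH fold. The mean peak length was larger after 1,25D at 3 of the 3 and 8 of the 9 sites, against 65.5% and 74.4% of all such sites.

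Folds of separate lists are not on a common scale, so the 4 sites in every covering list were also ranked within each list among the sites shared by all lists, from 1 as the highest. Of 311 such sites in the 5-list part, the BCL6 site ranked 12 and 15 in 1,25D replicates 1 and 3 and 195, 64 and 154 in EtOH replicates 1 to 3. It ranked higher in both 1,25D lists than in any EtOH list, which was so for 22.5% of the shared sites. The ratio of its mean folds, 5.61, was the highest of the 311, whose median was 1.61. This ratio sets folds of separate lists against each other, and the gene was picked for its peaks, so nothing is read from that order.

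The IRF8 site at 86007767 went the other way, with ranks of 275 and 272.5 after 1,25D and 242, 122 and 219 after EtOH. It was lower in both 1,25D lists than in any EtOH list, as were 23.5% of the shared sites. The IRF8 site at 85995631 had ranks that overlapped, 140.5 and 251.5 against 294.5, 123.5 and 169. The NFE2 site at 54677735 had ranks of 110.5, 118.5 and 81 after 1,25D and 79.5, 127.5 and 32 after EtOH, which overlapped as well. In the 6-list part 20.8% of the 298 shared sites ranked higher in every 1,25D list and 24.2% lower. The ranks of the 2 treatments were thus apart for the BCL6 site and within each other's spread for the NFE2 site.

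**Figure D4:**
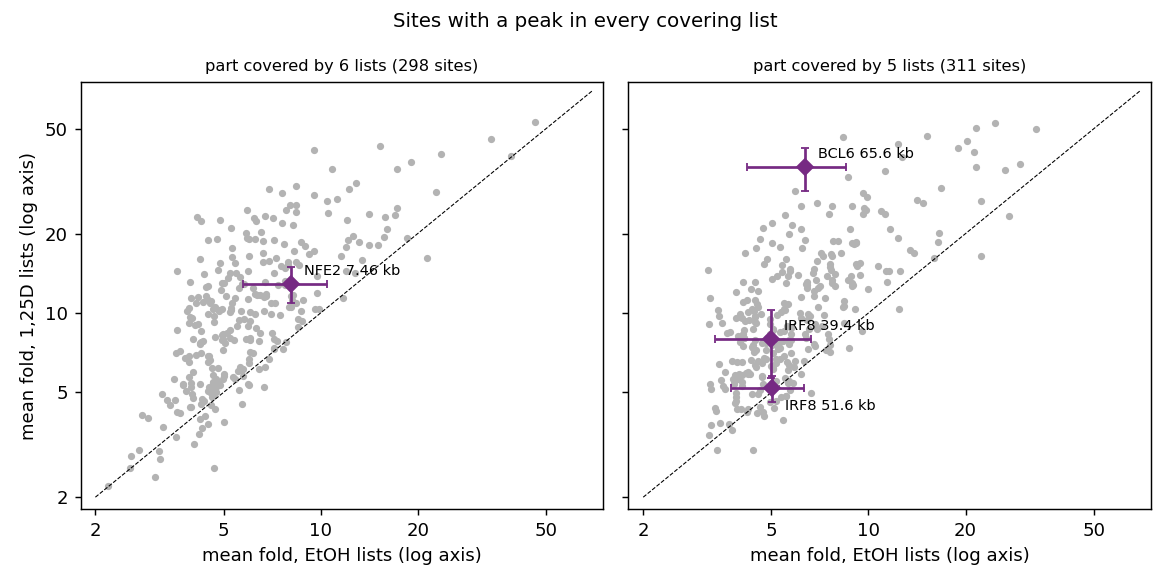
Mean fold over the 1,25D lists against mean fold over the EtOH lists (both log axes) for the sites with a peak in every covering list, grey, with the 4 sites of these genes as diamonds whose bars are 1 SD over libraries; the dashed line marks equal folds. The BCL6 site stands at 35.6 against 6.36 and the IRF8 site at 51.6 kb lies close to the line, at 5.19 against 5.02.

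Pooled over the genes, the recurrent sites were 8 upstream, 4 in the gene body and 6 downstream. The recurrent sites in every covering 1,25D list numbered 5 upstream, 3 in the gene body and 6 downstream. The covering 1,25D lists are 3 at LMO2 and NFE2 and 2 at the other genes. Shares by place over all sites were not computed, and the gene bodies run from 8.93 kb at NFE2 to 261 kb at RUNX1. Nothing is therefore read from these place counts. The place differed by gene: 5 of the 6 downstream sites were those of IRF8, and LMO2 and BCL6 had recurrent sites upstream alone. The gene bodies of LMO2, BCL6 and NFE2 held none of the 18, and the sites inside genes were 3 in RUNX1 and 1 in IRF8.

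The remaining 32 sites were in 1 list each, 9 of 15 sites in the 6-list windows and 23 of 35 in the 5-list windows, against 89.8% and 91.9% of all sites. Their folds were 2.94 to 5.45 in the 18 from 1,25D lists and 2.30 to 4.76 in the 14 from EtOH lists. Some ranked high within their list: the BCL6 peak at 187471940 was at percentile 93.4 of EtOH replicate 2, and the RUNX1 peak at 36300493 at percentile 86.3 of the same list.

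Many single peaks were short, at most 10 bp longer than the shortest peak of their list. These were 6 of 9 single peaks in the 6-list windows and 16 of 23 in the 5-list windows, against 60.1% and 64.8% of all single peaks. At recurrent sites they were 1 of 20 and 6 of 41 peaks, against 18.3% and 16.1% of all peaks at such sites.

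Single 1,25D sites within 5 kb of a recurrent site numbered 3 of 4 in the 6-list windows and 7 of 14 in the 5-list windows, against 10.3% and 6.14% of all single 1,25D sites. For EtOH the numbers were 1 of 5 and 0 of 9, against 6.53% and 2.87%. The windows were picked for their peaks and hold many recurrent sites, so nothing is read from these counts. Among these single 1,25D sites were the LMO2 peaks at 33916083 and 33916674 beside the main site and the RUNX1 peaks at 36468307 and 36471175 on either side of the site 47.6 kb upstream. The margins of 10 bp and 5 kb were chosen after the values were seen.

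The limit of 100 kb set which sites were counted. Just outside it, 22.8 kb beyond the upstream edge of the RUNX1 window, a site at 36544378 to 36544910 was in all 5 lists with folds of 3.12 to 9.81. Beyond the upstream edge of the NFE2 window, by 25.7 kb, a site at 54820515 to 54820978 was in 2 1,25D lists with folds of 4.04 and 4.52. Just inside the downstream edge of the BCL6 window, at 187340968 to 187341149, EtOH replicate 2 had a peak with a fold of 2.30. Outside that edge the nearest peak was 6.80 kb away, also in 1 EtOH list, with a fold of 2.54. Upstream of IRF8 the nearest recurrent site was 105 kb beyond the edge, at 85726880 to 85727372, in all 5 lists with folds of 3.52 to 13.8.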

How the data were processed

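The deposited lists are peaks called per library, per the file headers and the submitters' processing notes, which name Bowtie 1.1, MACS2 and hg19 (GRCh37) without settings; of MACS2's version, threshold and use of the input nothing is stated there. Per the file headers, each peak carries the authors' fold enrichment (their caller's ratio of signal to background) and the authors' p-value. Whether starts count from 0 or 1 is not stated, so coordinates are as listed. An incomplete last line was left out of 3 lists. Depth is unknown and limits the precision.

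Peaks were merged into sites with pandas 2.3.3 in Python 3.11.15, and the highest fold of a list was taken at a site. The merging was tested on simulated lists of well separated sites whose peaks always overlapped. Abutting peaks, and peaks of 1 list joined by a peak of another, were not simulated. Percentiles and ranks were taken within the part of the lists that the same libraries cover. Means are over the libraries with a peak. The genes and settings were chosen with earlier results of these data known. Named sites are those in 2 or more lists, single ones at a fold of 5 or more, and the site with the highest mean 1,25D percentile of each gene; other sites were named after their values were seen. No other column was used (0 columns). The promoter letters are RefSeq's (GRCh38.p14), which has no entry for LMO2 and NFE2. Other blood lineage genes, which need hg19 gene positions, were not analysed here.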

Additional observations from a re-analysis of the deposited data

How the results depend on the processing

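The 4 sites in every 1,25D and no EtOH list, the 4 in every list, the 0 in all EtOH lists alone and the fold of the highest-ranked site of each gene were computed again under other settings. With a common highest p of 0.004, or with an overlap of 50% of the shorter peak, all counts and folds were as reported. With peaks of a fold of 5 or more, 6 sites were in every 1,25D and no EtOH list and 1 was in every list; sites so counted can have a weaker EtOH peak. With 50 kb on each side, 2 sites were in every list; with the gene body alone, 1 was in 1,25D lists only and 0 were in every list. Fewer sites lie in a smaller window.

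Leaving out 1 library in turn, the count of 1,25D-only sites ranged from 4 to 13. It was 12 without 1,25D replicate 1 and 13 without 1,25D replicate 3, where 3 genes keep 1 hormone list. Most of the added sites were single peaks of that list. The NFE2 site at 54722166 was also added without replicate 1, and the NFE2 site at 54701319 without replicate 3. Without replicate 1, the RUNX1 site at 36283432 also split into the separate peaks of replicate 3. The count in every list ranged from 4 to 5 and that of EtOH-only sites from 0 to 0. The site ranked highest with all covering lists was kept. Its 1,25D fold ranged from 13.5 to 14.9 for LMO2, 30.9 to 40.4 for BCL6, 11.7 to 13.7 for NFE2, 8.69 to 12.2 for RUNX1 and 8.90 to 10.7 for IRF8. For BCL6, RUNX1 and IRF8 these are folds of 1 library. Without 1,25D replicate 3, other sites would rank highest at RUNX1 (36367166, percentile 96.2 against 93.4) and IRF8 (85995631, 94.6 against 93.5). Without 1,25D replicate 1, the NFE2 site at 54697860 would (97.0 and 96.9 against 95.6 and 97.8 in replicates 2 and 3). No paired analysis was possible because the results come from no test.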
